A study of Homo sapiens with 12 samples.

Results

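The machinery that makes microRNAs (miRNAs) and carries out their silencing was followed through 9 genes: DROSHA, DGCR8, XPO5, DICER1, TARBP2, PRKRA, TNRC6A, TNRC6B and TNRC6C. They were picked by name, not by any measured value, and are 9 of the 25718 genes in the count tables. All 9 passed the filter for testing, a mean above 10 counts over the 12 samples, as did 11451 genes in all. The cells were of H9, a human embryonic stem cell line in wide use, and carried a lentiviral vector for Tet-regulated miR-10a with GFP or miR-10b with GFP, transduced at a multiplicity of infection of 50. All cultures were patterned to ventral midbrain with CT0.8 and 200 ng/ml Shh over 14 days of neural induction. For each vector, 3 samples received doxycycline from day 11 to day 14 (miR-10a doxycycline, miR-10b doxycycline) and 3 did not (miR-10a control, miR-10b control). The comparison asks how the cells' RNA changed after a short pulse of miR-10. Every group carried a miR-10 vector, so a response to doxycycline itself cannot be told apart from a response to miR-10, and neither can the vectors from the cultures that carried them.

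A miRNA gene is transcribed as a long primary transcript, which the Microprocessor cuts in the nucleus into a hairpin precursor. The precursor is exported to the cytoplasm, where Dicer and its double-stranded RNA binding partners cut it to a short duplex. A strand of that duplex is loaded into an Argonaute protein and pairs with messenger RNAs, mostly in the 3′UTR and mainly through its seed, bases 2 to 8. GW182 proteins bind Argonaute and recruit the deadenylases that shorten and destabilise the target. Neural progenitors carry this machinery in common with other cell types, and the vector-borne miR-10 hairpins depend on the same steps.

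The miRNA induced from the miR-10a vector is shown because its seed sets which letters count as a possible match in these genes. Mature miR-10b was not in the reference used, so its sequence is not shown and no search was made with it. Capitals mark the seed, and the sequence is that of RefSeq (GRCh38.p14).

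hsa-miR-10a-5p: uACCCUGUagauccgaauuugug

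The longest annotated 3′UTR of each gene (GENCODE 44 lifted to GRCh37, read on the strand of the gene only) was searched for the letters that pair with this seed. The match types were ACAGGGTA (8mer), ACAGGGT without the final A (7mer-m8), CAGGGTA without the first A (7mer-A1) and CAGGGT with neither (6mer); each longer match contains the shorter ones and was counted once, as its longest type. TNRC6B alone held a match longer than 6 bases, with 1 8mer and 1 7mer-A1 beside 2 6mers in a 3′UTR of 12567 bases. These 2 stretches of TNRC6B are shown, with the match in capitals. Among the 125 tested genes with a 3′UTR within 25% of that length, 76.0% held a 7mer or 8mer and 14.4% an 8mer, against 21.1% and 2.59% of all 9260 tested genes with an annotated 3′UTR.

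TNRC6B 8mer, chr22:40727227-40727250, GRCh37, plus strand: tgatgcaaACAGGGTAttacacac
TNRC6B 7mer-A1, chr22:40729416-40729438, GRCh37, plus strand: tctagtgcCAGGGTAagaagtgt

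DGCR8, XPO5 and TNRC6C each held 1 6mer. The 3′UTRs of DROSHA (938 bases), DICER1 (4270 bases), TARBP2 (450 bases), PRKRA (683 bases) and TNRC6A (2414 bases) held none of these letters. A match is a description of the annotated sequence and not a measured binding site.

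Total counts ranged from 10545487 to 14165426 per sample, and a floor of 3 counts stands at 0.212 to 0.284 CPM, the unit used below (a gene's count relative to all counts of its library). Such floors cover counting error only. Within each vector, every control sample was deeper than every doxycycline sample. MIR10A, the precursor gene, stood at 724 ± 10.8 CPM (SD, n = 3) in the miR-10a doxycycline group and 0.999 ± 0.363 CPM in its control. MIR10B reached 2619 ± 67.5 CPM in the miR-10b doxycycline group against 3.55 ± 0.807 CPM, so both inductions matched the labels. The controls also differed at low levels. MIR10A stood at 0.641 to 1.37 CPM in the miR-10a control and at most 0.0794 CPM, under the floor, in the miR-10b control. MIR10B stood at 2.89 to 4.45 CPM in the miR-10b control and 0.482 to 1.04 CPM in the miR-10a control. The miR-10b doxycycline replicate 2 stood apart from its group: its counts differed from the other replicates by a chi-square per degree of freedom of 3.21 and 4.16, against 1.23 to 1.95 for all other replicate pairs. Nothing in the labels says that replicates were separate cultures, so p-values measure only the spread between these samples, which may be technical. Of the neural progenitor markers, 6 of 7 were above a mean of 10 counts and summed to 9787 to 11427 CPM, as were 6 of 8 ventral midbrain floor plate markers (1061 to 1370 CPM). PAX6 and LMX1B were under 1 count, and so were the stem cell markers POU5F1, NANOG, TDGF1 and ZFP42. Neural crest markers summed to at most 2.08 CPM.

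How well each gene could be followed depended on how many RefSeq transcripts it has. Reads common to more than 1 transcript seem to be absent from the deposited counts, since the 16209 genes with 1 transcript held 92.8% of all counts. XPO5 (NM_020750, mean 4329 counts) and TNRC6A (NM_014494, mean 6793 counts) have 1 transcript each and were measured with at least 3639 reads in every sample. The other 7 genes have 20 transcripts between them, and the transcript used for each, the one with the highest mean, held 18.6 to 97.2 counts. Of all 22 transcripts, 12 could be tested and 8 had a mean under 1 count. The small numbers of these 7 genes therefore do not mean low expression, and a change in one of them is a change in reads particular to 1 transcript.

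**Figure D1:**
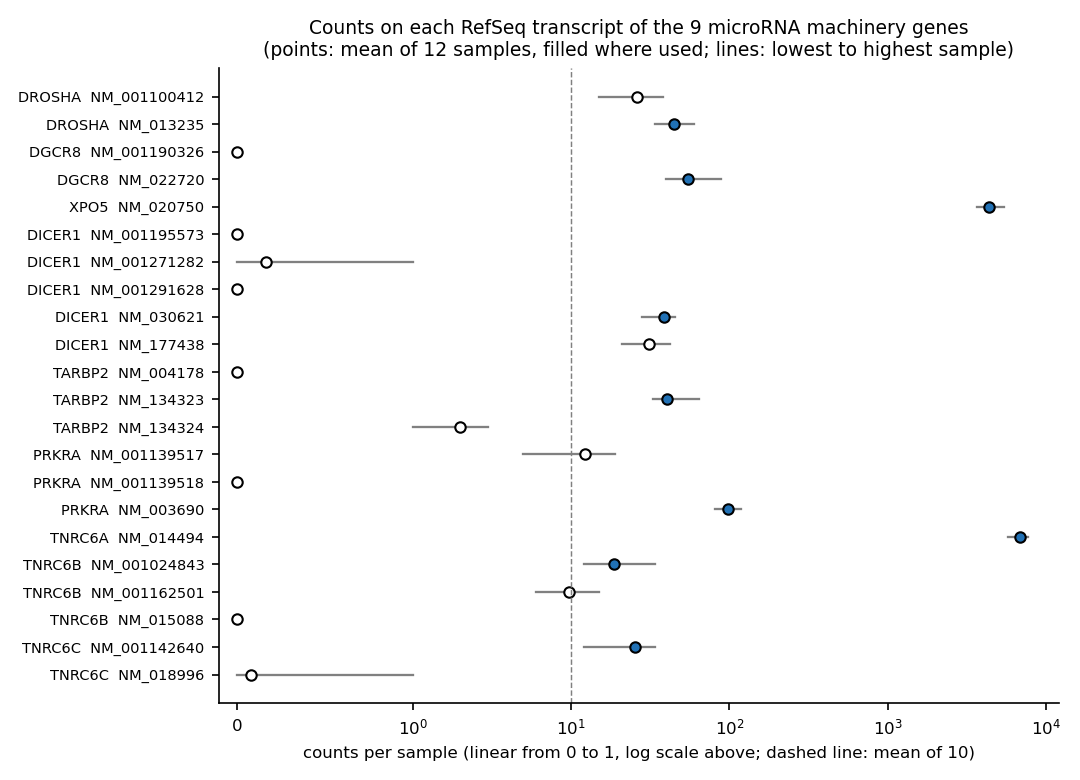
Counts per sample (x axis, linear from 0 to 1 and logarithmic above) on each of the 22 RefSeq transcripts of the 9 genes; points are means of 12 samples, filled for the transcript used, and lines run from the lowest to the highest sample. XPO5 and TNRC6A have means of 4329 and 6793 counts, while the transcripts used for the other 7 genes have means of 18.6 to 97.2 counts.

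Few of the 9 genes passed the test for a change. Each comparison was fitted over all 11451 tested genes with edgeR's quasi-likelihood test, and a gene was called at a Benjamini-Hochberg adjusted p under 0.05. After miR-10a induction 0 of the 9 were called, where 1.21% of all tested genes were. At an unadjusted p under 0.05 edgeR gave 1 of the 9 (TARBP2) and DESeq2 0, against 11.2% and 6.69% of all tested genes. After miR-10b induction 1 of the 9, TNRC6A, was called as higher, against 15.3% of all tested genes called and 8.18% called higher. For the mean of both doxycycline effects 1 of the 9, TARBP2, was called as higher, against 13.9% called and 7.67% called higher. For the difference between the effects, miR-10b minus miR-10a, 0 were called against 1.96%. At an unadjusted p under 0.05 edgeR and DESeq2 each gave 1 of the 9 (TNRC6A), against 13.2% and 8.48% of all tested genes. Between the controls, miR-10b minus miR-10a, 1 of the 9, XPO5, was called as lower, against 14.1% called and 6.72% called lower.

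**Figure D2:**
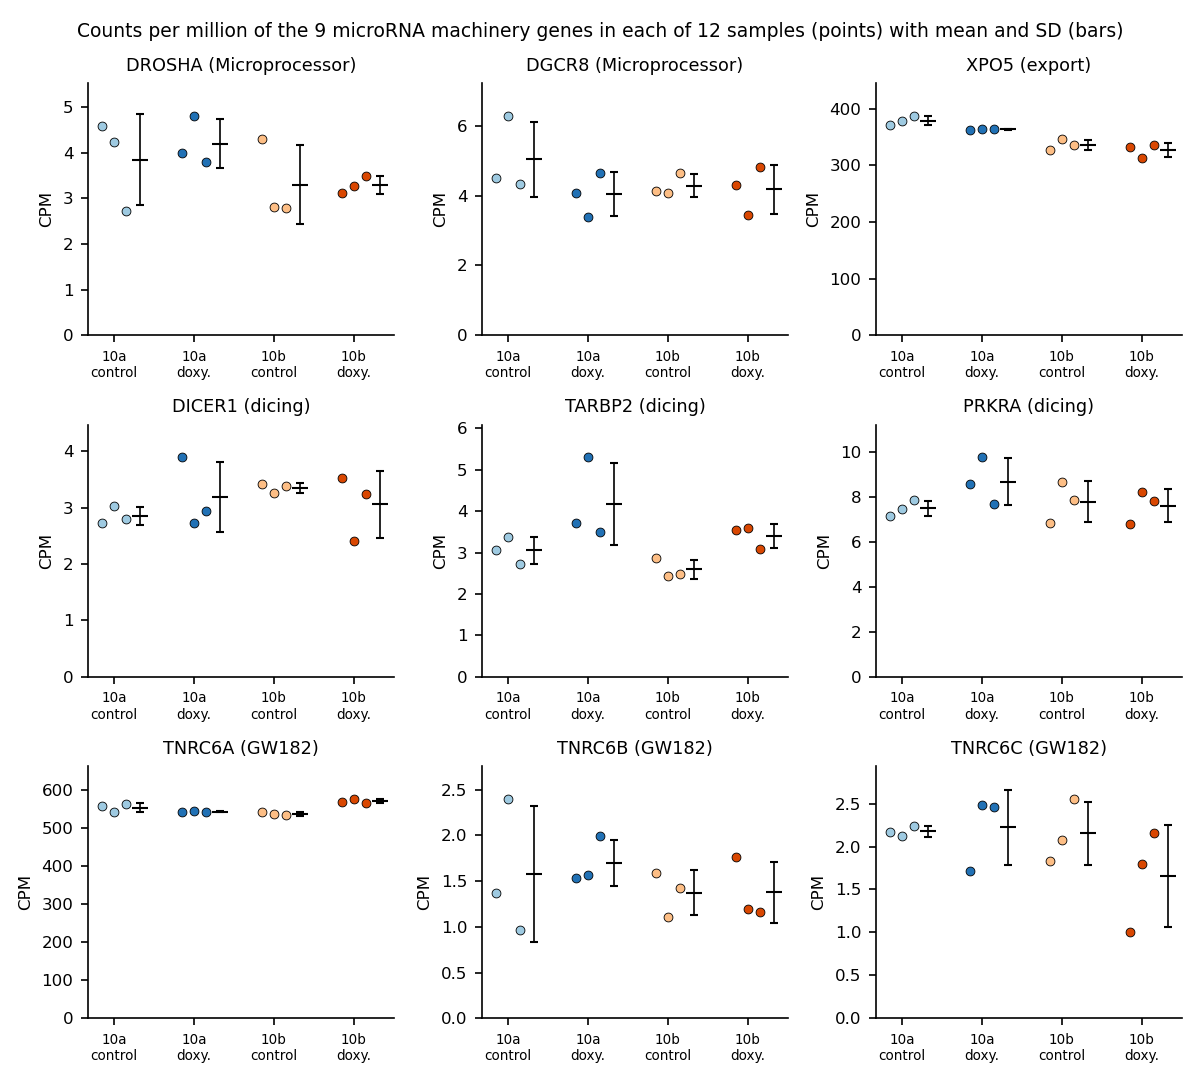
Level of each gene in CPM (y axis, from 0) in the 3 samples of each of the 4 groups (x axis); points are samples, bars to their right the mean and SD. XPO5 separates the 2 vectors, TNRC6A is highest in the miR-10b doxycycline samples, and the TARBP2 points with doxycycline lie above the controls of the same vector.

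The median log2 fold change of the 9 genes was 0.07 after miR-10a and -0.03 after miR-10b, beside 0.01 and 0.02 over all tested genes. Between the controls it was -0.17, beside -0.01. The intervals differed greatly in width: on the log2 scale the standard error was 0.03 for XPO5 and TNRC6A in each of these comparisons and up to 0.30 for TNRC6B.

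**Figure D3:**
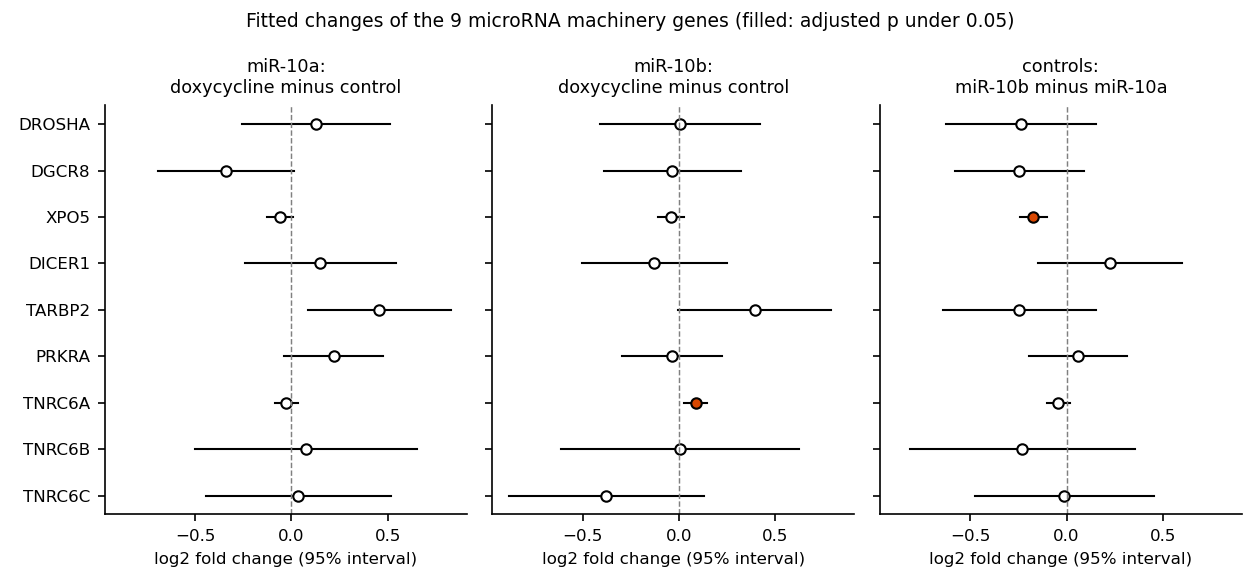
Fitted log2 fold changes (x axis) with 95% intervals for the 9 genes in 3 comparisons, filled where the adjusted p was under 0.05. Filled points are TNRC6A after miR-10b induction (0.09) and XPO5 between the controls (-0.17); the intervals of the 7 genes with several transcripts are several times wider than those of XPO5 and TNRC6A.

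The Microprocessor is the nuclease DROSHA with its RNA-binding partner DGCR8. DROSHA (chr5:31400601-31532303, GRCh37, minus strand; NM_013235) had 4.58, 4.24 and 2.72 CPM in the miR-10a control replicates and 3.98, 4.80 and 3.79 CPM with doxycycline. It had 4.29, 2.81 and 2.78 CPM in the miR-10b control and 3.11, 3.26 and 3.49 CPM with doxycycline. Doxycycline and control values overlapped under both vectors, and the spread within a control group was as wide as any difference between groups. Fitted log2 fold changes were 0.13 (95% interval -0.26 to 0.51, edgeR adjusted p = 0.875) for miR-10a and 0.01 (-0.41 to 0.42, adjusted p = 0.993) for miR-10b. Its second counted transcript, NM_001100412, gave -0.32 and 0.18, neither of them called.

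DGCR8 (chr22:20067744-20099400, plus strand; NM_022720) had 4.50, 6.28 and 4.33 CPM in the miR-10a control replicates and 4.08, 3.39 and 4.65 CPM with doxycycline. Under miR-10b it had 4.13, 4.07 and 4.66 CPM without and 4.29, 3.43 and 4.82 CPM with doxycycline. The values overlapped under both vectors, and 1 miR-10a control sample was the highest of all 12. The log2 fold change was -0.34 (-0.69 to 0.01, adjusted p = 0.479) for miR-10a and -0.03 (-0.39 to 0.32, adjusted p = 0.935) for miR-10b. Without that highest sample the miR-10a value was -0.14. Differences inside these intervals were not detectable at this depth. The DGCR8 messenger RNA is itself a Microprocessor substrate and holds the hairpins MIR3618 and MIR1306. They overlap 88 and 85 exonic bases on the same strand and had 0 counts in all 12 samples. Reads on these bases could belong to DGCR8 as well and may have been left out as shared. The 0 counts therefore do not show that the hairpins were absent.

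XPO5, exportin-5, carries precursor hairpins out of the nucleus (chr6:43490072-43543775, minus strand; NM_020750). In the miR-10a control replicates it had 370.5, 379 and 387 CPM, and with doxycycline 363, 364 and 365 CPM. In the miR-10b control replicates it had 328, 346 and 335 CPM, and with doxycycline 332, 312 and 337 CPM. The 6 miR-10a samples (363 to 387 CPM) all lay above the 6 miR-10b samples (312 to 346 CPM), whereas doxycycline and control samples of 1 vector lay closer together. How many of all tested genes separate the vectors in this way was not counted. Between the control groups alone, 30.1% of all tested genes did not overlap. Between the controls XPO5 was lower with the miR-10b vector by 11.2% (log2 fold change -0.17, SE 0.03, 95% interval -0.24 to -0.10, adjusted p = 0.000248), from 379 ± 8.35 to 336 ± 9.26 CPM (SD, n = 3). The call held in each of 19 alternative fits, with adjusted p between 5.3e-06 and 0.0047.

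Other features differed between the same controls. The mesenchymal or fibroblast markers (5 of 6 above 10 counts, DCN under 1) summed to 134 to 142 CPM in the miR-10a control and 286 to 310 CPM in the miR-10b control. Of these 5, COL1A1, COL3A1 and LUM were called as higher with the miR-10b vector and THY1 as lower (40.1 against 32.6 CPM), while COL1A2 stood at 5.10 and 4.42 CPM and was not called. The floor plate markers summed to 1071 to 1089 CPM against 1346 to 1370 CPM. The neural progenitor markers summed to 10165 to 10249 CPM against 11326 to 11427 CPM, a sum made up mostly of NES, VIM and SOX2, which were called as higher. SOX1 (52.2 against 22.2 CPM) and SOX3 (157 against 92.6 CPM) were called as lower, and HES5 was not called. DPPA4, the 1 of 5 stem cell markers above 10 counts, made up most of a sum of 140.1 to 149 against 105 to 110.4 CPM. The part of culture composition, or of the low miR-10 reads without doxycycline, in the XPO5 difference was not tested. In such bulk samples, fewer cells of a type and less RNA per cell cannot be told apart.

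After miR-10a induction every XPO5 value with doxycycline was below every control value (1 of the 9 genes, against 7.75% of all tested genes), but the fitted change of -0.06 (-0.13 to 0.01, adjusted p = 0.545) did not pass. After miR-10b induction it was -0.04 (-0.11 to 0.03, adjusted p = 0.476), or -0.01 without miR-10b doxycycline replicate 2, the lowest sample of the 12. The difference between the 2 effects was 0.02 (-0.08 to 0.11, adjusted p = 0.920). XPO5 shares 348 exonic bases with POLR1C on the opposite strand, 4.10% of its exonic bases, and whether counting used strand is not given in the sources used here.

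DICER1 cuts the precursor (chr14:95552565-95624347, minus strand). Through NM_030621, the transcript used, it had 2.73, 3.04 and 2.80 CPM in the miR-10a control replicates and 3.89, 2.73 and 2.94 CPM with doxycycline. Under miR-10b it had 3.42, 3.26 and 3.38 CPM without and 3.53, 2.40 and 3.24 CPM with doxycycline. The groups overlapped for each vector. On the log2 scale the change was 0.15 (-0.24 to 0.54, adjusted p = 0.847) for miR-10a and -0.13 (-0.51 to 0.25, adjusted p = 0.715) for miR-10b. All 3 miR-10b controls lay above all 3 miR-10a controls (2 of the 9 genes did not overlap in that comparison, XPO5 being the other, against 30.1% of all tested genes), with a fitted difference of 0.23 that did not pass (adjusted p = 0.507).

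A second DICER1 transcript, NM_177438 (mean 30.8 counts), was called under miR-10b when every transcript was fitted as its own row. It had 1.67, 1.78 and 2.63 CPM in the miR-10b control replicates and 3.03, 3.60 and 2.91 CPM with doxycycline. Each doxycycline value was above each control value. The log2 fold change was 0.64 (SE 0.21, 95% interval 0.21 to 1.07, edgeR adjusted p = 0.0349), where 14.6% of the 12094 transcripts tested were called. Under miR-10a the same transcript gave -0.16 (adjusted p = 0.864), and the difference between the vectors was 0.81 (SE 0.31, adjusted p = 0.207). The call was lost without miR-10b doxycycline replicate 1 (adjusted p = 0.0565) or 2 (0.142), and without miR-10b control replicate 1 (0.141) or 2 (0.140). With the counts of all 5 DICER1 transcripts summed, the change under miR-10b was 0.22 (adjusted p = 0.313). Whether the 2 transcripts of DICER1 responded differently was not tested.

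TARBP2, the Dicer partner TRBP, binds double-stranded RNA and helps load Argonaute (chr12:53894705-53900215, plus strand; NM_134323). It had 3.05, 3.39 and 2.72 CPM in the miR-10a control replicates and 3.71, 5.30 and 3.51 CPM with doxycycline. It had 2.86, 2.44 and 2.48 CPM in the miR-10b control replicates and 3.53, 3.60 and 3.08 CPM with doxycycline. Doxycycline values lay above control values without overlap under both vectors, in 6 of 6 samples, although these values rest on 33 to 64 reads each. How many of all tested genes lay above their controls under both vectors was not counted. Groups did not overlap for 2 of the 9 genes in each vector's comparison (TARBP2 and XPO5 for miR-10a, TARBP2 and TNRC6A for miR-10b), against 18.2% and 28.7% of all tested genes. Its log2 fold change was 0.46 (SE 0.18, 95% interval 0.09 to 0.83, adjusted p = 0.301) for miR-10a and 0.39 (SE 0.20, -0.005 to 0.79, adjusted p = 0.186) for miR-10b. Without miR-10a doxycycline replicate 2 the miR-10a value was 0.23.

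Neither change of TARBP2 passed alone. Their mean was 0.42 (SE 0.13, 95% interval 0.15 to 0.70, edgeR adjusted p = 0.0288), a rise of 34.2%, and their difference was -0.06 (-0.61 to 0.48, adjusted p = 0.953). The call rests on several libraries: it was lost without miR-10a doxycycline replicate 2, the highest sample (0.31, adjusted p = 0.141), and without miR-10a control replicate 1 or 3, miR-10b doxycycline replicate 1 or 2, or miR-10b control replicate 2 or 3 (0.39 to 0.42, adjusted p between 0.0526 and 0.0746). DESeq2 gave no adjusted p for it. A lncRNA gene on the opposite strand overlaps 541 exonic bases of TARBP2.

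PRKRA encodes PACT, the other double-stranded RNA binding partner of Dicer (chr2:179296019-179316239, minus strand; NM_003690). It was the best counted of the genes with several transcripts, with 81 to 118 reads per sample. It had 7.15, 7.48 and 7.85 CPM in the miR-10a control replicates and 8.60, 9.77 and 7.68 CPM with doxycycline. It had 6.83, 8.67 and 7.89 CPM in the miR-10b control replicates and 6.82, 8.24 and 7.82 CPM with doxycycline. The values overlapped under both vectors. The fitted log2 change was 0.22 (-0.04 to 0.47, adjusted p = 0.543) for miR-10a and -0.04 (-0.29 to 0.22, adjusted p = 0.898) for miR-10b, with a difference of -0.25 between them (adjusted p = 0.587). Without miR-10a doxycycline replicate 2, the highest sample, the miR-10a value was 0.12. For the mean of both doxycycline effects, the only comparison in which TARBP2 passed, PRKRA was not called. It ranged from 0.04 to 0.13 there over 18 alternative fits, none of them called. Whether the partners differed was not tested.

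The GW182 proteins TNRC6A, TNRC6B and TNRC6C link Argonaute to the deadenylases. TNRC6A (chr16:24621530-24838953, plus strand; NM_014494) had 558, 543 and 564 CPM in the miR-10a control replicates and 544, 545 and 543 CPM with doxycycline. It had 544, 538 and 534 CPM in the miR-10b control replicates and 571, 578 and 567 CPM with doxycycline. The 3 miR-10b doxycycline samples were the highest of the 12, and the other 3 groups overlapped. Between miR-10b doxycycline and control samples, 28.7% of all tested genes did not overlap. Under miR-10b TNRC6A rose by 6.14%, from 539 ± 5.16 to 572 ± 5.39 CPM (SD, n = 3; log2 fold change 0.09, SE 0.03, 95% interval 0.03 to 0.15, edgeR adjusted p = 0.0416). Under miR-10a the change was -0.03 (-0.09 to 0.03, adjusted p = 0.798). The difference between the 2 effects was 0.11 (SE 0.04, 0.03 to 0.20, adjusted p = 0.176) and did not pass, so the rise is not shown to differ between the vectors.

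The TNRC6A call is close to the threshold. It was lost with TMM factors in place of total counts (0.07, adjusted p = 0.112), with DESeq2 (0.07, adjusted p = 0.110), with no filter on low counts (0.09, adjusted p = 0.0806) and when only the miR-10b samples were fitted (0.09, adjusted p = 0.111). It was also lost without miR-10a control replicate 1, miR-10a doxycycline replicate 1, miR-10b doxycycline replicate 1 or 2, or any of the 3 miR-10b control replicates (0.08 to 0.09, adjusted p between 0.0561 and 0.123). Alongside, mesenchymal or fibroblast markers summed to 286 to 310 CPM in the miR-10b control and 238 to 253 CPM with doxycycline. Of the 5 tested, 2 were called as lower and 1 had a fitted rise. Early neuron markers (3 of 6 above 10 counts) summed to 50.4 to 53.5 and 58.7 to 62.1 CPM, with 1 of 3 called as higher. Of all 11451 tested genes, 937 were called as higher and 819 as lower. Neural progenitor markers summed to 11326 to 11427 CPM without and 10802 to 10977 CPM with doxycycline, with 3 of 6 (NES, SOX3 and HES5) called as lower. The floor plate marker CORIN, read through 1 of its 3 transcripts, was called as lower too, from 21.8 to 12.8 CPM. The part of these markers in the TNRC6A value was not tested.

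TNRC6B (chr22:40440821-40731812, plus strand; NM_001024843), the gene with the 8mer shown above, was the most thinly counted, with 12 to 34 reads per sample. It had 1.37, 2.40 and 0.962 CPM in the miR-10a control replicates and 1.54, 1.57 and 1.99 CPM with doxycycline. It had 1.59, 1.11 and 1.43 CPM in the miR-10b control replicates and 1.77, 1.20 and 1.16 CPM with doxycycline. The lowest and the highest of the 12 values were both miR-10a controls. On the log2 scale the change was 0.07 (-0.50 to 0.65, adjusted p = 0.959) for miR-10a and 0.01 (-0.61 to 0.63, adjusted p = 0.993) for miR-10b. A change in either direction inside these intervals was not detectable at this depth, so the data say little about how TNRC6B messenger RNA moved.

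TNRC6C (chr17:75954785-76104903, plus strand; NM_001142640) had 2.17, 2.12 and 2.24 CPM in the miR-10a control replicates and 1.72, 2.48 and 2.47 CPM with doxycycline. It had 1.83, 2.07 and 2.55 CPM in the miR-10b control replicates and 1.01, 1.80 and 2.16 CPM with doxycycline. The groups overlapped, and the lowest value was a miR-10b doxycycline sample. The log2 fold change was 0.03 (-0.45 to 0.51, adjusted p = 0.982) for miR-10a and -0.38 (-0.88 to 0.13, adjusted p = 0.347) for miR-10b, and the latter ranged from -0.62 without miR-10b doxycycline replicate 3 to -0.12 without replicate 1. TNRC6C shares 1426 exonic bases with TMC6 on the opposite strand, 12.3% of its exonic bases.

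Levels between genes can be compared only per length and only for genes with 1 transcript. As RPKM, CPM divided by transcript length in kilobases, XPO5 stood at 70.6 and TNRC6A at 65.9 in the miR-10a control, and at 60.9 and 67.9 in the miR-10b doxycycline group, so their order turned over. AGO1 stood at 57.7 and 65.3 RPKM and AGO4 at 27.1 and 27.5 RPKM in the same groups. XPO5, TNRC6A and AGO1 thus lay close together, all above AGO4 in every group.

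The 4 Argonautes hold the guide strand. AGO1 rose after miR-10b induction from 458 ± 1.80 to 489 ± 14.7 CPM (SD, n = 3; log2 fold change 0.09, SE 0.03, edgeR adjusted p = 0.0363), and under miR-10a gave 0.06 (adjusted p = 0.435). The AGO1 call was lost with TMM factors (adjusted p = 0.0937) and with DESeq2 (0.0973), when only the miR-10b samples were fitted (0.0992), with no filter (0.0594), and without miR-10a doxycycline replicate 1, miR-10b doxycycline replicate 2 or any miR-10b control replicate (0.0514 to 0.133). AGO2, the Argonaute best known for cleaving targets, gave 0.62 after miR-10b (SE 0.22, adjusted p = 0.0526) and 0.08 after miR-10a (adjusted p = 0.937). The miR-10b value of AGO2 passed with no filter (edgeR adjusted p = 0.0326), with the replicate number as a block (0.0495) and without miR-10b doxycycline replicate 1 (0.0408) or 3 (0.0149), and with single samples left out it ranged from 0.30 (without miR-10b doxycycline replicate 2, adjusted p = 0.474) to 0.79. AGO3 gave 0.11 and 0.31, and AGO4 gave 0.08 and -0.03, for miR-10b and miR-10a in that order, none of them called. AGO2 and AGO3 have several transcripts and were read through 37.7 and 46.8 counts on average.

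In all, 67 genes that act with the machinery, the Argonautes included, were listed, and 46 of them were tested. After miR-10a induction 1 of the 46 was called (LIN28A, lower) and after miR-10b 9, of which 2 were higher and 7 lower, or 19.6% beside 15.3% of all tested genes. The split among all genes, 937 higher and 819 lower for miR-10b, turns to 766 and 963 with TMM factors and 498 and 808 with DESeq2. The precursor tailing and decay list had the most calls, with 4 of 8 tested genes lower after miR-10b and 0 higher. Of all 11451 tested genes, 819 were lower. The 4 were LIN28A, LIN28B, TRIM71 and XRN2. The lists were drawn up with earlier results of these data known, and the study had already reported lower LIN28A after both inductions. This ranking of the lists is therefore a description only. TUT1, DIS3L2, SND1 and PNPT1 were not called, and ZCCHC11 and ZCCHC6 were too thinly counted to be tested. Of the nuclear processing partners 2 of 8 were lower, and of the decapping and translational repression genes 1 of 8 was higher and 1 lower. None of the 10 RISC loading and none of the 8 deadenylation genes was called in either vector's comparison.

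**Figure D4:**
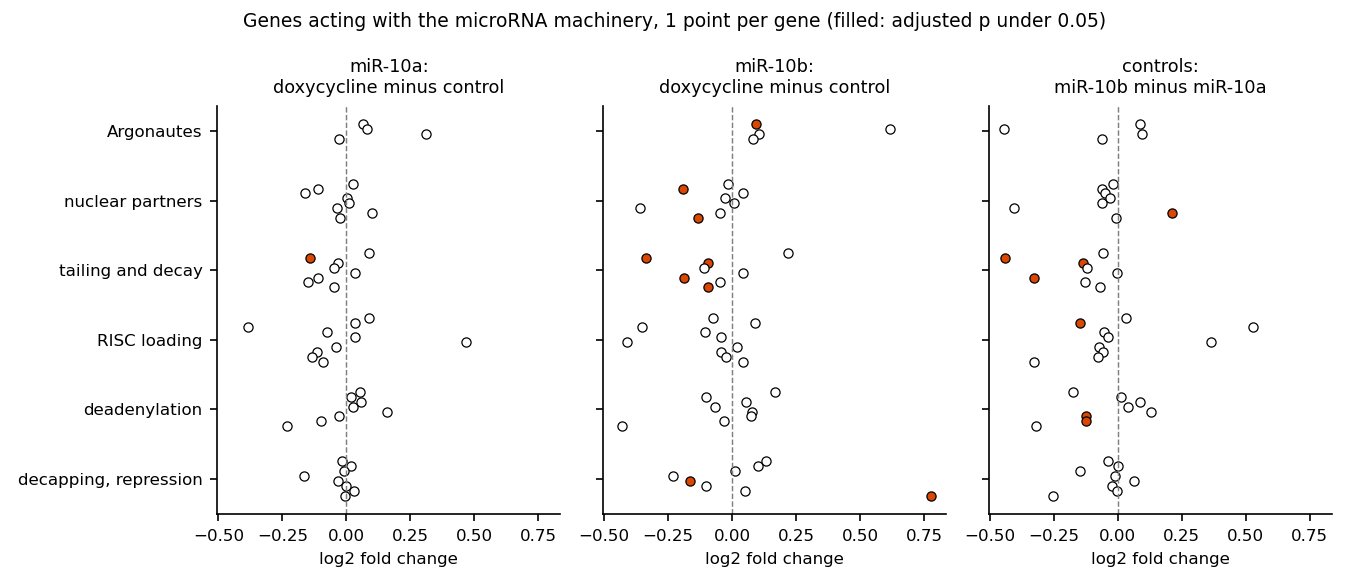
Log2 fold changes (x axis) of the 46 tested genes that act with the machinery, 1 point per gene, in 6 lists (y axis) and 3 comparisons, filled where the adjusted p was under 0.05. After miR-10b induction 4 of 8 tailing and decay genes are filled, all below 0, and the single filled Argonaute is AGO1.

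LIN28A and LIN28B bind the let-7 precursor and block its maturation. LIN28A fell under miR-10b from 1135 ± 12.9 to 899 ± 12.9 CPM (log2 fold change -0.34, SE 0.03, edgeR adjusted p = 4.78e-11), and under miR-10a from 1539 ± 34.8 to 1395 ± 30.1 CPM (-0.14, SE 0.03, adjusted p = 0.00316). The miR-10a call of LIN28A was lost without miR-10a control replicate 3 (-0.13, adjusted p = 0.052). LIN28B fell by 0.09 on the log2 scale under miR-10b (adjusted p = 0.0402). TRIM71, an RNA-binding protein that is itself a let-7 target, fell by 0.19 (adjusted p = 0.000348), and XRN2, a nuclear exonuclease, fell by 0.09 (adjusted p = 0.0277).

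Among the nuclear partners HNRNPA1 fell by 0.19 (adjusted p = 0.0116) and TARDBP by 0.14 (adjusted p = 0.0025) after miR-10b, both RNA-binding proteins known to assist the processing of some precursors. In the decapping list LSM14B fell by 0.16 (adjusted p = 0.0011), and the cytoplasmic exonuclease XRN1 rose by 0.78 (adjusted p = 0.0256) on 23.8 counts on average. HNRNPA1 and XRN1 were each read through 1 of several transcripts. The calls of LIN28A, TRIM71, TARDBP and LSM14B held in each of their 19 alternative fits under miR-10b. Leaving out single libraries ended the call of HNRNPA1 (miR-10b doxycycline replicate 1, adjusted p = 0.0674) and of XRN1 (miR-10b doxycycline replicate 1 or 3, or control replicate 2 or 3, 0.0544 to 0.136). The LIN28B call was lost without miR-10a doxycycline replicate 1, miR-10a control replicate 1, miR-10b doxycycline replicate 1 or 2, or miR-10b control replicate 2 or 3 (0.0522 to 0.141), with no filter on low counts (0.0614) and when only the miR-10b samples were fitted (0.0943). The XRN2 call was lost without miR-10b doxycycline replicate 3 or any miR-10b control replicate (0.0518 to 0.0819), and when only the miR-10b samples were fitted (0.0741).

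Between the controls, 7 of the 46 genes were called (15.2%, beside 14.1% of all tested genes), 1 higher and 6 lower with the miR-10b vector. They were chosen here after their values were seen. LIN28A gave -0.44 (edgeR adjusted p = 8.06e-15), TRIM71 -0.33 (7.72e-09) and LIN28B -0.14 (0.00155), and these held in each of 19 alternative fits. FKBP4 gave -0.15, PABPC1 -0.12 and PAN3 -0.13. SRSF3 gave 0.21, read through NR_036610, the non-coding of its 2 transcripts, so this is a change in reads particular to that transcript. Each of these lost its call when 1 library was left out: FKBP4 without miR-10a control replicate 2 or miR-10b control replicate 3 (adjusted p = 0.141 and 0.103), PABPC1 without miR-10b control replicate 3 (0.0838), PAN3 without miR-10a control replicate 1 or 3 or any miR-10b control replicate (0.0668 to 0.117), and SRSF3 without miR-10a control replicate 1 or 2 or miR-10b control replicate 1 or 3 (0.0697 to 0.280). With DESeq2 the calls of PAN3 (adjusted p = 0.0647) and SRSF3 (0.0843) were lost too. XPO5 and, of the listed genes, LIN28A, LIN28B, TRIM71, FKBP4, PABPC1 and PAN3 were thus called as lower in the miR-10b control than in the miR-10a control. SRSF3 was called as higher.

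The genes whose pattern was most like that of a called gene were found by Pearson r of log2(CPM + 0.5) over the 12 samples, among 6975 or 6976 genes with a mean of at least 100 counts. The points share group means and library totals, so r is a description only. XPO5 was followed most closely by PPAT (r = 0.980), an enzyme of purine synthesis, and WDR75 (r = 0.978), a ribosome biogenesis factor. PPAT stood at 186 ± 7.22 CPM in the miR-10a control and 159 ± 2.54 CPM in the miR-10b control, and WDR75 at 198 ± 3.23 and 175 ± 4.19 CPM. TNRC6A was followed by FAHD2A (r = 0.903) and the pseudogene USP32P1 (r = 0.881), whose reads may be split with near-identical copies. TARBP2 was followed by B4GALNT3 (r = 0.895), a glycosyltransferase, and TYW1 (r = 0.891), an enzyme of tRNA modification, although on so few reads its own values carry a wide counting error.

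**Figure D5:**
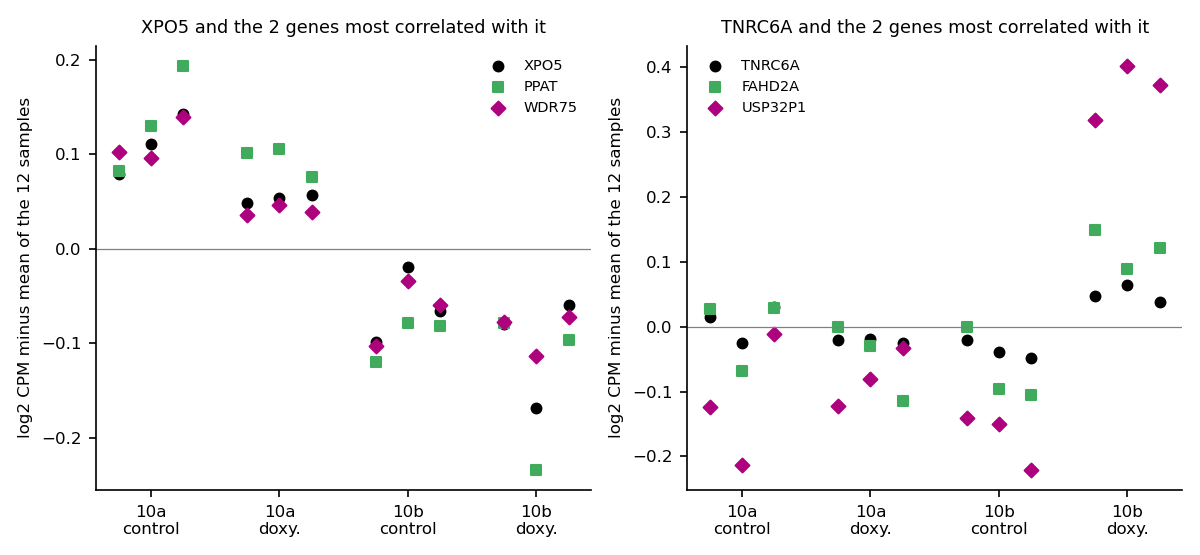
Log2 CPM minus the mean of the 12 samples (y axis) for XPO5 and TNRC6A with the 2 genes most correlated with each, 3 replicates in each of 4 groups (x axis). The 6 miR-10a values of XPO5, PPAT and WDR75 lie above 0 and the 6 miR-10b values below it, while TNRC6A, FAHD2A and USP32P1 are highest in the miR-10b doxycycline samples.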

How the data were processed

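RNA was sequenced from 12 samples in 4 groups of 3. The authors mapped single-end reads of poly-A-enriched libraries to hg19 and deposited raw counts per RefSeq transcript with its length. The submitters' processing notes name STAR, Subread and featureCounts, and versions are not given in the sources used here. The deposited values precede the study's scaling to total reads. For RNA extraction and libraries the labels and the methods name different kits.

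Of 51799 rows per table, 3698 repeats of a transcript, identical in every sample, were dropped, leaving 48101 transcripts of 25718 genes; the transcript with the highest mean count stood for a gene. Genes with a mean above 10 counts entered the quasi-likelihood test of edgeR 4.0.16, run in R 4.3.3 (glmQLFit, glmQLFTest; 4 group means, library size the total count, Benjamini-Hochberg adjustment, threshold 0.05). Standard errors and 95% intervals follow from the test statistic.

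Alternatives were TMM factors, DESeq2 1.42.0, other count filters, the replicate number as a block, only the groups compared, counts summed over transcripts, and leaving out each sample. The code was tested on simulated counts. The fit of single transcripts was set with the rest; the alternatives for DICER1 NM_177438 and for the named pathway genes were added after seeing the data. The genes, lists and tests were chosen with earlier results of these data known. Named besides the 9 genes were all Argonautes and, per list, up to 4 called genes with the largest change for each vector, and for each called gene the 2 most correlated genes. 3′UTRs came from GENCODE 44 with Python 3.11.15, pandas 2.3.3 and matplotlib 3.10.9. Replicate numbers did not pair the samples, since deviations of same-numbered samples from their group means correlated by -0.07 to 0.03.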

Additional observations from a re-analysis of the deposited data

Results flagged for a closer look

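LIN28A fell with both vectors, but by different amounts. The difference between the doxycycline effects, miR-10b minus miR-10a, was -0.195 on the log2 scale (SE 0.04, edgeR adjusted p = 0.00413), where 1.96% of all tested genes passed. It held in each of 18 alternative fits (-0.21 to -0.18, adjusted p at most 0.0288). The 2 controls already differed, at 1539 CPM for miR-10a and 1135 CPM for miR-10b. Reads on the induced MIR10A and MIR10B genes stood at 724 and 2619 CPM. These reads come from poly-A-enriched libraries and do not measure mature miR-10. The part of the control levels or of the induction in this difference was not tested. None of the 9 genes themselves showed such a difference past the threshold.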

How the results depend on the processing

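Of the values of the 9 genes that had an adjusted p, 231 of 245 under the other settings and 480 of 540 under left-out samples kept their direction and their side of the threshold. Most of these values were not called in the main fit either, so these shares say little about the called ones. Among alternative fits with an adjusted p, TNRC6A lost its miR-10b call in 11 of 19. TARBP2 lost its call for the mean effect in 7 of 16, and XPO5 its call between the controls in 0 of 19. Depth limits the 7 genes with several transcripts, which rest on 18.6 to 97.2 counts on average, while TNRC6A, with 6793, lies close to the threshold. The number of these genes called after miR-10b fell from 1 to 0 with TMM factors, DESeq2, no filter and only the groups compared, and for the mean effect from 1 to 0 with DESeq2 (which gave no adjusted p for 6 of the 9) and with the filter of a mean above 50 counts, which left 4 of the 9 and not TARBP2. With samples left out, both counts ranged from 0 to 1, and the counts after miR-10a (0) and between the controls (1) stayed. The cause was not tested, apart from the filter.

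Among all genes, the 139 called after miR-10a became 272 with only the groups compared and 78 to 268 with samples left out. The 224 for the difference of effects became 343 with no filter and 140 to 340 with samples left out; those for miR-10b (1216 to 1796), the mean effect (1203 to 1719) and the controls (1231 to 1992) stayed within 1.5 times. The higher and lower calls were 878 and 712 for the mean effect, 665 and 852 with TMM factors and 464 and 743 with DESeq2; for the difference they were 66 and 158, and 22 and 165 with DESeq2, and for miR-10a 54 and 85, and 36 and 93 with DESeq2. The median of all genes moved by at most 0.021 (log2) with scaling.

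The replicate numbers did not pair the samples. With the replicate number as a block, 166 genes were called after miR-10a and 1826 after miR-10b, and TNRC6A, TARBP2 and XPO5 kept their calls.

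The following log2 values changed sign. With counts summed over transcripts, DROSHA gave -0.025 for miR-10a and 0.10 for the difference, DICER1 0.22 for miR-10b, 0.20 for the difference and -0.012 between the controls, and PRKRA 0.024 for miR-10b and -0.0031 between the controls. With TMM factors, miR-10b gave -0.011 for DROSHA and -0.0093 for TNRC6B, and the mean effect -0.0015 for DICER1. With DESeq2, which gave no adjusted p for these, the same values were -0.018, -0.016 and -0.0037. With samples left out, miR-10a values ranged from -0.061 to 0.26 for DROSHA, -0.018 to 0.26 for DICER1, -0.18 to 0.54 for TNRC6B, -0.061 to 0.19 for TNRC6C and -0.076 to 0.16 for AGO2. Those for miR-10b ranged from -0.10 to 0.23 for DROSHA, -0.15 to 0.088 for DGCR8, -0.24 to 0.016 for DICER1, -0.12 to 0.048 for PRKRA and -0.21 to 0.12 for TNRC6B. Mean effects ranged from -0.028 to 0.18 for DROSHA, -0.073 to 0.083 for DICER1 and -0.084 to 0.27 for TNRC6B. Differences of effects ranged from -0.25 to 0.11 for DROSHA, -0.0042 to 0.049 for XPO5, -0.17 to 0.16 for TARBP2 and -0.53 to 0.18 for TNRC6B. Between the controls they ranged from -0.024 to 0.14 for PRKRA, -0.48 to 0.23 for TNRC6B, -0.15 to 0.088 for TNRC6C and -0.096 to 0.26 for AGO3.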
